A study of Mus musculus with 7 samples.

Results

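The genes described here are the WNT ligands, the proteins that process them, their receptors and co-receptors, their inhibitors, and the feedback, polarity and transcription factor genes that act downstream. They were chosen by gene symbol alone, as 55 of the 17096 genes with a probe set of their own on the array. By role they comprised 19 ligands, 3 genes of ligand processing, 10 Frizzled receptors, 5 co-receptors and alternative receptors, 10 inhibitors, 4 feedback and scaffold genes, 2 Prickle genes and 2 transcription factors. Sfrp4, Prickle3, Prickle4 and Tcf7, whose symbols the rule also covers, were not analysed here.

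WNT proteins are secreted lipid-modified signals. They bind Frizzled receptors together with the co-receptors Lrp5 or Lrp6, which spares beta-catenin from a destruction complex built on Axin and lets it act with TCF/LEF factors on target genes, among them negative feedback genes of the pathway itself. Other branches run through Ror, Ryk and Prickle proteins and do not use beta-catenin. In the mammary gland, WNT signalling sets up the embryonic bud and supports basal cells in the adult, and Wnt4 carries progesterone signals from luminal cells to their neighbours.

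The study holds 7 Affymetrix arrays of mouse mammary cells. Adult luminal cells (2 arrays) were YFP+ cells of K8CREERT2/RosaYFP mice, and adult basal cells (2 arrays) were YFP+ cells of K5CREERT2/RosaYFP mice, in both cases 8 weeks after tamoxifen. A keratin 8 or keratin 5 promoter thus drove the recombinase that switched on YFP, so each group holds cells descended from those in which that promoter was active. Embryonic cells (3 arrays, 2000, 2000 and 813 cells) were CD49fHi Lgr5Hi cells from female Lgr5-IRES-GFP embryos at day 14 of gestation, each array from the pooled females of a litter. The adult arrays were marked as taken from earlier work, and their tissue and protocol labels repeat the embryonic ones. The labels give neither the age of the adult mice nor whether replicates came from separate mice. The p-values below therefore measure only the spread between these arrays, and their small number limits the precision of every value.

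Values are log2 probe set intensities, and each gene is represented by its brightest probe set. Because probe sets differ in how they respond, levels are compared between arrays and never between genes. A level of 5.77 served as background, taken as the 95th percentile over 148 probe sets for 106 genes that are typical of organs outside the gland. By their mean in luminal or basal cells, 35 of the 55 genes lay above it. A gene passed the test when its Benjamini-Hochberg adjusted p over all 17096 genes was under 0.05 in limma and the difference was at least 2-fold. Checked against lineage markers, 9 of 14 luminal markers passed as higher in luminal cells, and 10 of 11 basal markers passed as lower there. The summed intensity of the basal marker list was 2920 to 3636 in luminal cells, against 17762 to 18813 in basal cells. That of the luminal list was 12826 to 13598 in luminal cells, against 7180 to 7631 in basal cells, where 12 of its 14 markers were above background. Krt8 (0.40) and Epcam (0.39), which mark luminal epithelium, did not pass. Nor did Gata3 (-0.05), the 1 luminal marker of the 14 with a lower mean in luminal cells. In bulk samples, fewer cells of a type and less RNA per cell cannot be told apart.

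Luminal cells had higher Wnt4 and Wnt7b than basal cells, and lower levels of the inhibitors Wif1, Sfrp1, Dkk3, Sfrp2 and Apcdd1, of the receptors Fzd1 and Fzd7, of the co-receptor Lrp6, of both Prickle genes and of Tcf7l1, Nkd2 and Wnt10a. Of the 55 genes, 15 passed the test (27.3%), against 6.81% of all genes tested. Luminal cells were lower for 13 of the 15 (23.6% of the 55, against 3.24% of all genes) and higher for 2, Wnt4 and Wnt7b (3.64%, against 3.57% of all genes). The median difference, luminal minus basal, was -0.27 for the 55 genes and 0.02 for all genes. Luminal and basal arrays did not overlap for 35 of the 55 genes (63.6%), close to the 59.2% of all genes. Basal arrays were the higher ones for 29 of them (52.7%, against 25.3% of all genes) and luminal arrays for 6 (10.9%, against 33.9%).

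**Figure D1:**
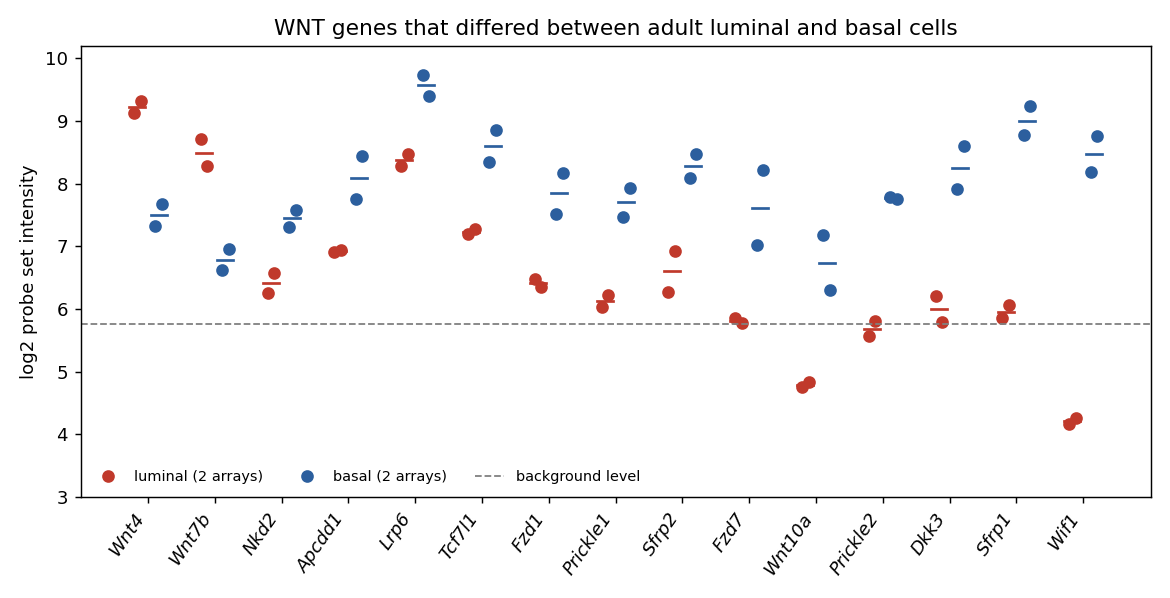
Log2 probe set intensity (vertical axis) of the 15 genes that passed the test, in 2 luminal and 2 basal arrays; points are arrays, short lines are group means and the dashed line is the background level of 5.77. Wnt4 and Wnt7b are higher in luminal arrays, the other 13 are lower there, and luminal Wif1 and Wnt10a lie below background in both arrays.

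Among the ligands, 3 of 19 passed the test, 2 higher and 1 lower in luminal cells. Wnt4, a ligand induced by progesterone, had levels of 9.13 and 9.32 in luminal cells, against 7.32 and 7.67 in basal cells. Its difference, luminal minus basal, was 1.73 ± 0.17 (SE, n = 2 and 2 arrays, limma adjusted p = 0.00447). Wnt7b, a ligand with roles in lung and kidney development, had 8.72 and 8.28 in luminal cells, against 6.62 and 6.96 in basal cells, a difference of 1.71 ± 0.20 (limma adjusted p = 0.00704). For both ligands every luminal array lay above every basal array, and a second probe set of each gave a like difference (1.77 for Wnt4 and 1.70 for Wnt7b). Wnt10a, a ligand needed for skin appendages and teeth, went the other way. It had 4.75 and 4.83 in luminal cells, both below background, against 7.18 and 6.30 in basal cells, with a difference of -1.95 ± 0.29 (limma adjusted p = 0.0124). Taking background as the luminal level, Wnt10a was at least 1.96-fold lower in luminal cells, a bound just under 2-fold. Basal replicate 1 was the higher of its basal arrays.

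The promoter window of Wnt4, the ligand with the lowest adjusted p, is shown because it was rich in C and G (84.3%, with 51 CG dinucleotides). The median over 32851 RefSeq promoter windows of the same length was 52.7% and 7 CG dinucleotides. Wnt3a (86.3% and 45) and Wnt9a (83.3% and 58), ligands that did not pass, had windows about as rich. The window runs from 250 bases before to 50 bases after the start of transcription, chr4:137277385-137277684, plus strand, GRCm38.p6.
Wnt4: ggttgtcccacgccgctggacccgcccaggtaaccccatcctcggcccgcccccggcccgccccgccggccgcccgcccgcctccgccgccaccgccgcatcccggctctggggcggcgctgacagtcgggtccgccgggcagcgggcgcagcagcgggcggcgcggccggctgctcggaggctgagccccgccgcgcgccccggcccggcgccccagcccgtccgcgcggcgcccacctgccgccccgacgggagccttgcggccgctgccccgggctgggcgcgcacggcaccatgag

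Of the 16 ligands that did not pass, 5 lay above background. Wnt11 had 5.995 and 6.16 in luminal cells, against 6.70 and 6.75 in basal cells, a difference of -0.65 ± 0.13 that had a limma adjusted p of 0.0248 but was under 2-fold. Wnt6 had 6.47 and 6.40 in luminal cells, against 7.08 and 6.76 in basal cells, a difference of -0.48 ± 0.15 (limma adjusted p = 0.0856). In these probe sets of Wnt11 and Wnt6 every luminal array was below every basal array. A second Wnt6 probe set, below background in both groups, differed by 0.20. Wnt5a, a ligand of the branches that do not use beta-catenin, had 7.37 and 7.69 in luminal cells, against 6.60 and 7.38 in basal cells, with overlapping arrays and a 95% interval of the difference from -0.14 to 1.23. Wnt5b had 6.44 and 6.16 in luminal cells, against 6.02 and 6.10 in basal cells, with a 95% interval of -0.12 to 0.60. Wnt2b had 5.64 and 5.96 in luminal cells, against 5.86 and 5.56 in basal cells, with overlapping arrays and a 95% interval of -0.35 to 0.52. The other 11 ligands, Wnt1, Wnt2, Wnt3, Wnt3a, Wnt7a, Wnt8a, Wnt8b, Wnt9a, Wnt9b, Wnt10b and Wnt16, had group means of 3.32 to 5.13, below background in both groups. Their differences of -0.54 to 0.11 do not show unchanged expression. Of the 55 genes, 4 pairs are direct neighbours in the genome, and Wnt6 with Wnt10a, on chromosome 1, is the pair with genes above background.

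Ligand processing genes did not pass. Porcn, the enzyme that attaches the lipid to WNT proteins, had 8.11 and 7.57 in luminal cells, against 7.09 and 7.34 in basal cells (0.62 ± 0.21, limma adjusted p = 0.104). Wls, the carrier that brings WNT proteins to the cell surface, had 8.24 and 8.12 in luminal cells, against 8.44 and 8.87 in basal cells (-0.48 ± 0.18, limma adjusted p = 0.130). In these probe sets the groups did not overlap, Porcn being higher and Wls lower in luminal cells. For Wls, 2 further probe sets above background differed by -0.10 and -0.03, with overlapping arrays, and the mean of its probe sets by -0.20 (limma adjusted p = 0.657). Notum, the enzyme that removes the lipid, lay below background in both groups, at 4.36 in luminal and 4.34 in basal cells.

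Of the 10 Frizzled receptor genes, 2 passed, both lower in luminal cells, and the median difference of the 10 was -0.59. Fzd7 had 5.85 and 5.77 in luminal cells, against 7.02 and 8.21 in basal cells, a difference of -1.80 ± 0.37 (limma adjusted p = 0.0290). Fzd1 had 6.48 and 6.35 in luminal cells, against 7.51 and 8.18 in basal cells, a difference of -1.43 ± 0.23 (limma adjusted p = 0.0154). The luminal arrays lay close together for both receptors, below every basal array, while basal replicate 2 was above basal replicate 1, by 1.20 for Fzd7 and 0.67 for Fzd1. Luminal Fzd7 lay just above background. A second Fzd7 probe set, below background in luminal cells, differed by -2.08.

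The promoter window of Fzd7 is shown because it holds a TCF/LEF core motif, the recognition letters of the factors through which beta-catenin acts. The letters searched, on both strands, were CTTTGAA or CTTTGAT and also CTTTGTA or CTTTGTT. Capitals mark the match, on the reverse strand, whose first base is at -130 from the start of transcription. The window is chr1:59481897-59482196, plus strand, GRCm38.p6.
Fzd7: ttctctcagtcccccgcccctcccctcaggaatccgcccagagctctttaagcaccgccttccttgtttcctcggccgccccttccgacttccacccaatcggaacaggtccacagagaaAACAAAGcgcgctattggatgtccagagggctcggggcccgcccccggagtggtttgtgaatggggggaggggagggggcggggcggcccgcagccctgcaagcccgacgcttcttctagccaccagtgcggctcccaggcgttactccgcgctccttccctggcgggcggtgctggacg

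Of the receptors that did not pass, Fzd2, Fzd3, Fzd5 and Fzd8 had lower means in luminal cells. Fzd3 had 7.45 and 7.38 in luminal cells, against 8.06 and 8.01 in basal cells (-0.62 ± 0.12, limma adjusted p = 0.0236, under 2-fold). The mean of its 6 probe sets, some below background, differed by -0.39 (limma adjusted p = 0.0700). Fzd2 had 7.83 and 7.65 in luminal cells, against 8.05 and 9.25 in basal cells (-0.91 ± 0.38, limma adjusted p = 0.167), and its basal arrays were 1.20 apart. Fzd8 had 4.86 and 4.85 in luminal cells, against 5.39 and 6.36 in basal cells, a difference of -1.02 ± 0.31 (limma adjusted p = 0.0801). Fzd5 had 5.48 and 5.54 in luminal cells, against 5.88 and 6.21 in basal cells, a difference of -0.54 ± 0.15 (limma adjusted p = 0.0682). A second Fzd5 probe set, below background in both groups, differed by 0.13, and the mean of its probe sets by -0.20 (limma adjusted p = 0.453). Luminal Fzd5 and Fzd8 were below background. Fzd6, a receptor of the planar polarity branch, had 7.18 and 6.997 in luminal cells, against 6.43 and 6.72 in basal cells (0.51 ± 0.15, limma adjusted p = 0.0774), and was the only receptor above background whose luminal arrays were all higher. Fzd4, Fzd9 and Fzd10 were below background in both groups.

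Of the 5 co-receptors and alternative receptors, Lrp6 passed. It had 8.28 and 8.48 in luminal cells, against 9.73 and 9.41 in basal cells, a difference of -1.19 ± 0.16 (limma adjusted p = 0.0100). Lrp5, the closest relative of Lrp6, had 8.51 and 8.69 in luminal cells, against 8.58 and 8.76 in basal cells. Its arrays overlapped and its 95% interval ran from -0.42 to 0.27, so a 2-fold difference lay outside the interval. Ryk had 9.51 and 9.50 in luminal cells, against 9.70 and 9.74 in basal cells, with a 95% interval of -0.51 to 0.07. Ror2, a receptor of Wnt5a, had 5.52 and 6.39 in luminal cells, against 5.08 and 5.62 in basal cells, the basal mean being below background (limma adjusted p = 0.276). Ror1 was below background in both groups and under 2-fold (-0.96 ± 0.15, limma adjusted p = 0.0148). A second Ror1 probe set, also below background in both groups, differed by -0.03.

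Inhibitors held the 3 lowest differences of the 55 genes. Of 10, 5 passed, all lower in luminal cells, with a median of -0.94. Wif1, a secreted protein that binds WNT ligands, had 4.17 and 4.27 in luminal cells, against 8.19 and 8.76 in basal cells, a difference of -4.26 ± 0.21 (limma adjusted p = 0.00169). Both luminal values lay below background, so the difference is given as a bound: Wif1 was at least 6.55-fold lower in luminal cells. Sfrp1, a secreted decoy with a Frizzled-like domain, had 5.85 and 6.06 in luminal cells, against 8.77 and 9.24 in basal cells, a difference of -3.05 ± 0.19 (limma adjusted p = 0.00247). Sfrp1 was thus 8.30-fold lower in luminal cells, and the gap between the groups was wider than the spread within either. Luminal Sfrp1 lay just above background, so its fold is not ranked against the bound for Wif1. A further 3 probe sets, annotated to Serinc3 as well as Sfrp1, cannot be assigned to 1 gene and were also lower in luminal cells. The brightest of them had 6.36 and 6.51 in luminal cells, against 8.89 and 9.57 in basal cells.

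The promoter window of Wif1 is shown because Wif1 had the lowest difference as measured, though its luminal values lay below background. It held no TCF/LEF core, had 63.0% C and G and 25 CG dinucleotides, and is chr10:121033754-121034053, plus strand, GRCm38.p6.
Wif1: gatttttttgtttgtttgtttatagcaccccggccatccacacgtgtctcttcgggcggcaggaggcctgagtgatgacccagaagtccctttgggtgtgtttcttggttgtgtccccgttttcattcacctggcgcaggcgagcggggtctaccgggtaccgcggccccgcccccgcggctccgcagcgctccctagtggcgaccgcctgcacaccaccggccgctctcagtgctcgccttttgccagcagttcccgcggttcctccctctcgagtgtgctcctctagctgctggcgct

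Dkk3, a divergent Dickkopf relative that is not a typical blocker of Lrp6, had 6.21 and 5.79 in luminal cells, against 7.91 and 8.61 in basal cells (-2.26 ± 0.27, limma adjusted p = 0.00710). Sfrp2, a decoy like Sfrp1, had 6.27 and 6.93 in luminal cells, against 8.09 and 8.47 in basal cells (-1.68 ± 0.25, limma adjusted p = 0.0127). Apcdd1, a membrane protein that inhibits WNT signalling at the cell surface, had 6.92 and 6.94 in luminal cells, against 7.76 and 8.44 in basal cells (-1.17 ± 0.23, limma adjusted p = 0.0254). For these 3 genes every luminal array was below every basal array. The 2 further Apcdd1 probe sets differed by -1.30 and -1.03, and the further Dkk3 probe set, below background in luminal cells, by -1.86. Luminal replicate 2 of Dkk3, at 5.79, lay just above background. Sfrp5 had 5.72 and 5.52 in luminal cells, both below background, against 6.20 and 6.48 in basal cells, and was under 2-fold (-0.72 ± 0.15, limma adjusted p = 0.0317). The classical Dickkopf genes Dkk1, Dkk2 and Dkk4, together with Frzb, were below background in both groups, with group means of 3.79 to 5.64.

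Of the 4 feedback and scaffold genes, 1 passed, with a median of -0.55. Nkd2, which binds Dishevelled and dampens the signal, had 6.25 and 6.58 in luminal cells, against 7.31 and 7.59 in basal cells, a difference of -1.03 ± 0.17 (limma adjusted p = 0.0162), just past the 2-fold minimum. Of its 2 further probe sets, both below background, one differed by -0.60 and the other by 0.01. Axin2, a destruction complex scaffold and a common readout of beta-catenin signalling, had 6.26 and 6.54 in luminal cells, against 6.79 and 7.20 in basal cells. The luminal arrays were both below the basal ones, and the difference of -0.60 ± 0.19 missed the test (limma adjusted p = 0.0847). A second Axin2 probe set, below background in luminal cells, differed by -0.83, and the mean of its probe sets by -0.71 (limma adjusted p = 0.069). Nkd1 had 6.71 and 6.59 in luminal cells, against 6.95 and 7.34 in basal cells (-0.49 ± 0.17, limma adjusted p = 0.106). Further Nkd1 probe sets differed by -0.31, -0.72 and -0.95. The mean of all Nkd1 probe sets differed by -0.62 (limma adjusted p = 0.0477), under 2-fold. Axin1, the scaffold that is not a feedback gene, had 8.89 and 8.77 in luminal cells, against 8.80 and 8.84 in basal cells, with a 95% interval of -0.29 to 0.31.

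Both Prickle genes, which encode cytoplasmic proteins of the planar polarity branch, were lower in luminal cells. Prickle2 had 5.58 and 5.80 in luminal cells, against 7.79 and 7.76 in basal cells, a difference of -2.08 ± 0.13 (limma adjusted p = 0.00247). Prickle1 had 6.03 and 6.22 in luminal cells, against 7.47 and 7.93 in basal cells, a difference of -1.58 ± 0.19 (limma adjusted p = 0.00716). The groups did not overlap for either gene, and the basal arrays of Prickle2 were 0.03 apart. The luminal mean of Prickle2, 5.69, was below background, as was 1 of its 2 luminal arrays. With that array set to the background level, Prickle2 was at least 3.97-fold lower in luminal cells.

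Prickle2 has 4 promoter windows in RefSeq, and the one shown is the only one of them with TCF/LEF cores, 2 of them, in capitals, with first bases at -164 and -140 from the start of transcription. It is chr6:92567317-92567616, minus strand, GRCm38.p6, with 46.3% C and G and 4 CG dinucleotides.
Prickle2: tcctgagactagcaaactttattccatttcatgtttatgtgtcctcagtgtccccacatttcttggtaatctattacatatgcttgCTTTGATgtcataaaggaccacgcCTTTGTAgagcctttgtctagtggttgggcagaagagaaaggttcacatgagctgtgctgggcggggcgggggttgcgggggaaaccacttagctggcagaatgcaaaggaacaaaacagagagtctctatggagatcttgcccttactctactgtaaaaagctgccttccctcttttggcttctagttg

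Promoter windows were at hand for 38 of the 55 genes, and for 9 of the 15 that passed. Of the 46 windows of the 38 genes, 7 held a TCF/LEF core (15.2%), against 16.9% of all 32851 windows. Of the 13 windows of genes that passed, 2 held one (15.4%), and the Axin2 and Nkd2 windows held none. The windows of the 38 genes had a median of 66.2% C and G and 25 CG dinucleotides, against 52.7% and 7 for all windows. A match is a description of letters and not a site of binding.

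Of the 2 transcription factors, Tcf7l1, which acts mostly as a repressor of WNT targets, had 7.20 and 7.27 in luminal cells, against 8.35 and 8.86 in basal cells. The difference was -1.37 ± 0.19 (limma adjusted p = 0.0110), and a second probe set differed by -1.32. Tcf7l2, its relative with activating and repressing forms, had 8.92 and 9.04 in luminal cells, against 8.70 and 9.33 in basal cells. Its arrays overlapped, and the 95% interval of -0.58 to 0.51 left out a 2-fold difference.

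**Figure D2:**
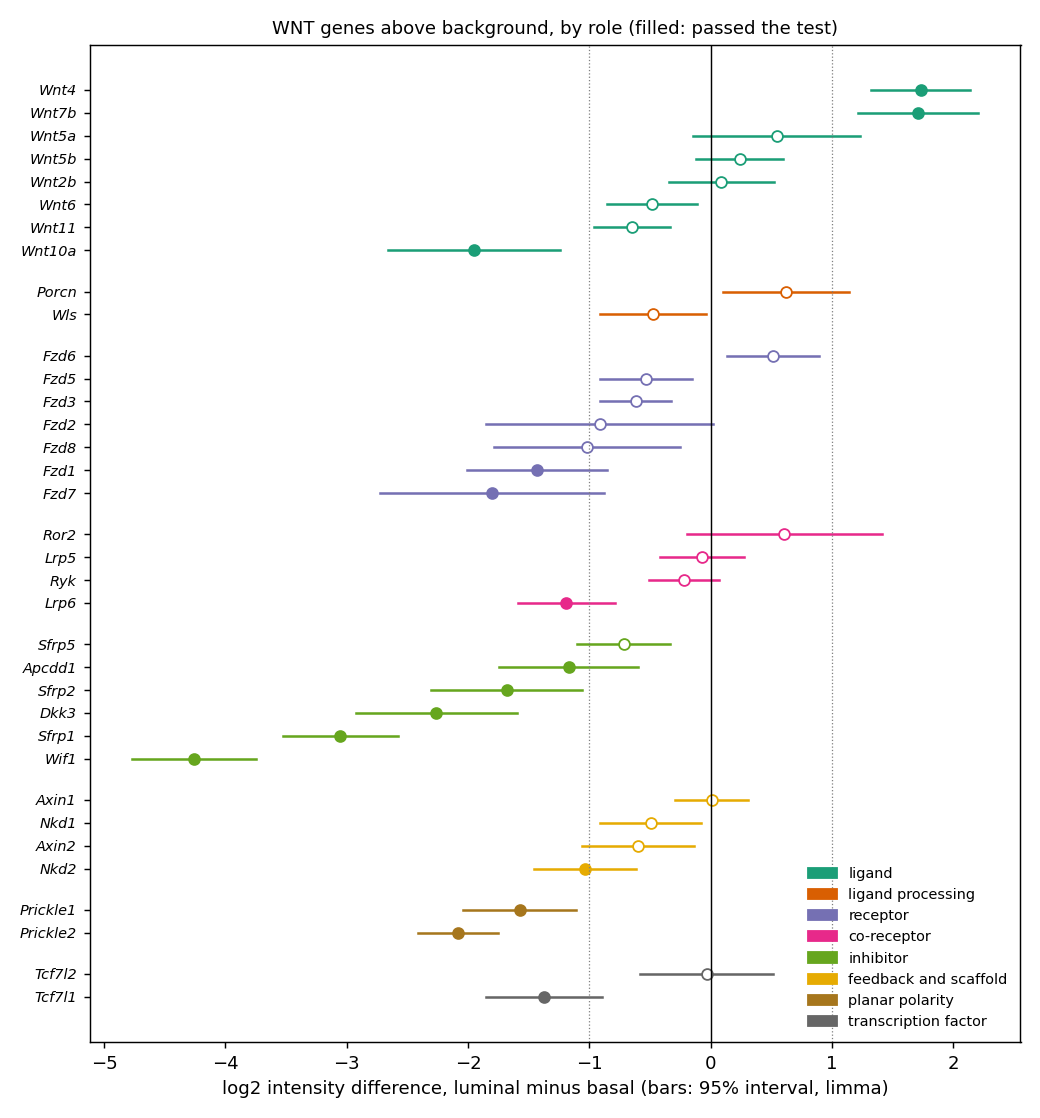
Log2 intensity difference, luminal minus basal (horizontal axis), of the 35 genes above background, grouped by role; points are limma estimates, bars their 95% intervals, filled points passed the test and dotted lines mark 2-fold. The inhibitors reach from -0.72 for Sfrp5 to -4.26 for Wif1, and Wnt4 and Wnt7b stand on the luminal side. Luminal Sfrp5 and Wif1 lie below background.

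The rest of the pathway was examined in 77 further genes, while Csnk1g2, Dact3, Pygo1, Aes, Kremen2, Gpc3, Sdc1 and Ephb2 were not analysed here. Of the 77, 11 passed, 3 higher and 8 lower in luminal cells, beside 1165 of all 17096 genes (6.81%). The median difference of the 77 was -0.04. Each list below is short, so its count is given without a reading for the list as a whole. Of 20 genes of the beta-catenin complex and its transducers, 1 passed, Dact1, a Dishevelled-binding modulator (-1.52 ± 0.28, limma adjusted p = 0.0220). Luminal Dact1, at 5.11 and 5.34, was below background, against 6.32 and 7.17 in basal cells, so it was at least 1.97-fold lower, a bound just under 2-fold. The median of that list was 0.18, with beta-catenin itself, Ctnnb1, at 0.18 and Apc at 0.18. Of 12 nuclear partners, the co-repressor gene Tle1 passed (-1.33 ± 0.20, limma adjusted p = 0.0124). Lef1, a TCF relative, was below background in both groups, and Bcl9 had a difference of -0.03.

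Of 12 surface modulators, Lrp4, a receptor that binds inhibitors of the Sost family, was lower in luminal cells (-1.34 ± 0.20) and Dkkl1, a Dkk3-related gene, higher (1.31 ± 0.12). Kremen1 (-0.34) and Sost (-0.08) did not pass. Of 9 genes of the R-spondin axis, Lgr5 (-3.90 ± 0.18) and Lgr4 (-1.92 ± 0.27), receptors of R-spondins, were lower in luminal cells. Rspo1 also passed (1.20 ± 0.12), but it was below background in both groups, as were Rspo2 and Rspo3. None of 9 polarity partners passed in limma, and 0 of the 9 had an unadjusted p under 0.05, with Vangl1 at 0.25 and Vangl2 at -0.04. Of 17 further WNT targets, Jag1 (-1.65 ± 0.13), Procr (-1.75 ± 0.20), Tiam1 (-1.09 ± 0.20) and Lgr5 were lower in luminal cells and the cyclin gene Ccnd1 higher (1.16 ± 0.13). Myc (-0.61, under 2-fold) and Sp5 (0.13) did not pass.

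**Figure D3:**
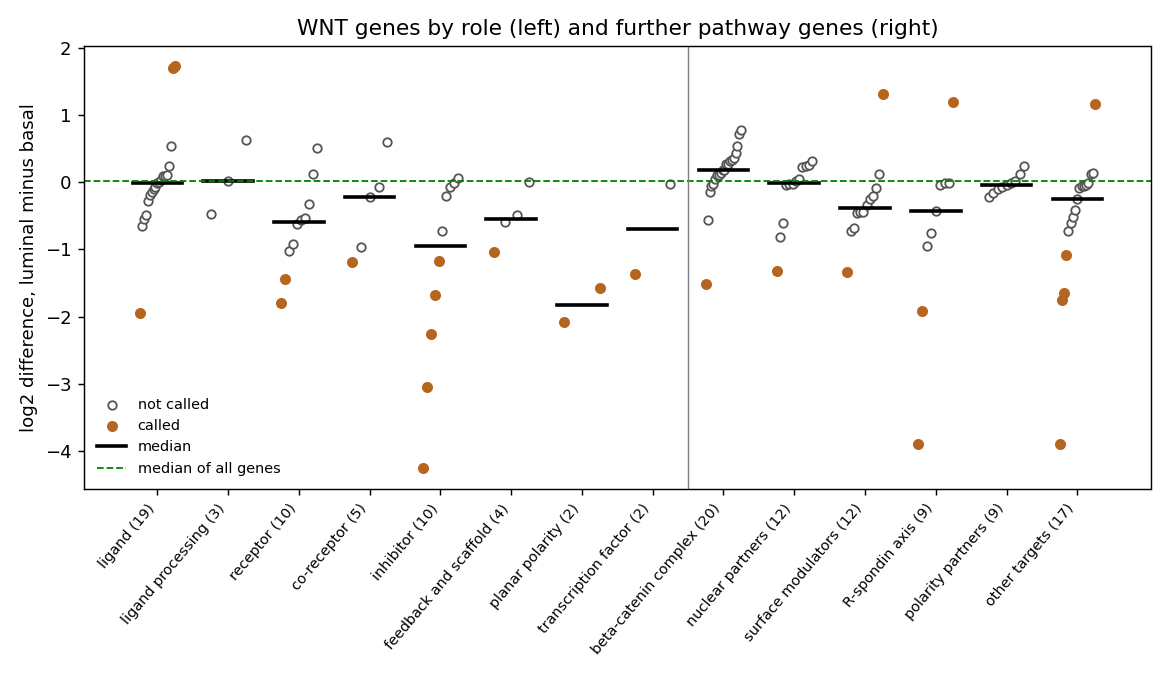
Log2 difference, luminal minus basal (vertical axis), of each gene by role (left of the vertical line, 55 genes) and in lists of further pathway genes (right); filled points (called) passed the test, thick lines are medians and the dashed line is the median of all genes, 0.02. The inhibitors have a median of -0.94 and the beta-catenin complex list one of 0.18.

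Fibroblast, endothelial and leukocyte markers were also lower in luminal cells by their medians, leukocyte markers least. Of 14 fibroblast markers 4 passed, all lower in luminal cells, with a median difference of -1.04 over the 14. Mfap5, among the 4, was below background in both groups (4.17 in luminal and 5.23 in basal cells). The summed intensity of the 14 was 3187 to 5191 in luminal cells, against 8044 to 9584 in basal cells. Above background were 10 of 14 in each group, while Pdgfra and Col1a2 were not. An unadjusted p under 0.05 was found for 8 of the 14 fibroblast markers and for 11 of 12 endothelial markers, against 31.6% of all genes. The basal arrays were the higher ones, without overlap, for 9 and 11 of them, against 25.3% of all genes. Of the 12 endothelial markers 1 passed, Esam, which was below background in both groups (4.38 in luminal and 5.68 in basal cells). The 12 had a median difference of -1.21 and a summed intensity of 473 to 807 in luminal cells, against 1113 to 1829 in basal cells. Above background were 5 of the 12 in luminal cells and 8 in basal cells, Pecam1 and Cdh5 among them. None of 11 leukocyte markers passed in limma, 4 had an unadjusted p under 0.05, and Ptprc was below background. Their median difference was -0.25, and the basal arrays were the higher ones, without overlap, for 6 of the 11. The luminal arrays were the higher ones, without overlap, for 1, Cd14 (0.79). Leukocyte markers had a summed intensity of 629 to 735 in luminal cells, against 765 to 914 in basal cells. Stromal cells can also make secreted Frizzled-related proteins and Frizzled receptors, and the part of such cells in the differences given above was not tested.

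The basal arrays also differed from each other. In basal replicate 2 minus 1 the median of the 55 genes was 0.19, with 39 higher in replicate 2 (70.9%, against 55.2% of all genes), and the median of the 10 receptors was 0.50. Endothelial markers had a median of 0.78 in that difference and fibroblast markers one of 0.25, beside 0.03 for all genes. Luminal epithelial markers had a median of 0.39, basal markers one of 0.12 and leukocyte markers one of 0.03. Between the luminal arrays, replicate 2 minus 1, the median of the 55 genes was 0.10 and that of all genes -0.01. Endothelial markers had a median of 0.65 there, leukocyte markers 0.45, fibroblast markers 0.43, basal markers 0.25 and luminal markers -0.01.

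The number of genes that passed changed when 1 adult array was left out. Wif1, Sfrp1, Dkk3, Prickle2, Wnt4 and Wnt7b, 6 of the 15, passed in each of the 4 fits that left out 1 adult array. Without luminal replicate 1 these 6 were the only genes of the 55 to pass. Without luminal replicate 2, 10 passed, and Apcdd1, Fzd1, Fzd7, Tcf7l1 and Wnt10a did not. Without basal replicate 2, 13 passed, and Apcdd1 and Nkd2 did not. Without basal replicate 1, 18 passed, Fzd2, Fzd8 and Ror1 in addition. For the 5 genes that missed the test without luminal replicate 1 and also without luminal replicate 2, the differences stayed near those with all 4 arrays, for instance -1.16 and -1.18 for Apcdd1 and -1.84 and -1.76 for Fzd7. Nkd2 differed by -0.87 without luminal replicate 1, which is under 2-fold. Such fits also have fewer arrays and residual degrees of freedom, and a lone array has no spread of its own and takes that of the remaining pair. Among all genes the count that passed was 519 without luminal replicate 1, against 1165 with all 4 adult arrays.

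The embryonic columns carry a limit that the table itself shows. Embryonic replicates 1 and 2 had identical values for 18 of the 55 genes and all 3 embryonic replicates for 8, Lrp6 and Nkd2 among them, while no pair with an adult array shared more than 1. The embryonic mean lay between the luminal and basal means for 47 of the 55 genes (85.5%, against 89.3% of all genes), and for all 15 that differed between luminal and basal cells. Its median distance from the adult mean was 0.03 over the 55 genes and 0.02 over all genes. What made the embryonic values tie and lie near the adult mean was not tested, and embryonic comparisons are read as values of this table.

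Within that limit, the embryonic arrays differed among themselves for several inhibitors. Wif1 had 6.63, 4.81 and 5.06 in embryonic cells, against 4.17 and 4.27 in luminal and 8.19 and 8.76 in basal cells, so that replicate 1 alone was above background. Sfrp1 had 8.01, 6.54 and 6.72 in embryonic cells, with replicate 1 again the highest and all 3 between the luminal and the basal arrays. Wnt4 (7.95, 8.10 and 8.54) and Wnt7b (6.84, 7.005 and 7.78) were highest in embryonic replicate 3, the array of 813 cells, as was Wnt10a (4.97, 5.08 and 6.35). None of the 55 genes passed the test for embryonic minus basal in limma, against 0.0702% of all genes, and 14 had an unadjusted p under 0.05 (25.5%, against 9.25% of all genes). Likewise 0 passed for embryonic minus luminal, against 0.0234% of all genes, and 11 of 55 had an unadjusted p under 0.05 (against 2060 of all 17096 genes). Because embryonic values tie and lie near the adult mean, these shares cannot be told apart from the difference between luminal and basal cells. The lowest adjusted p was that of Prickle2 in embryonic minus basal, with a difference of -1.30 ± 0.16 (limma adjusted p = 0.0899).

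**Figure D4:**
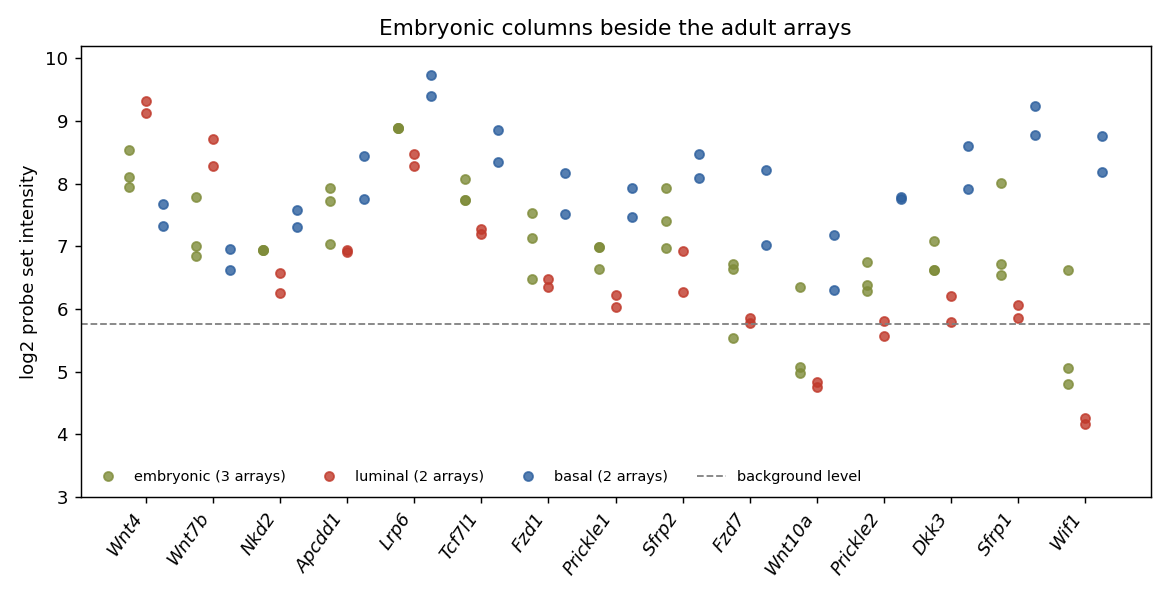
Log2 probe set intensity (vertical axis) of the 15 genes that differed between luminal and basal cells, in 3 embryonic, 2 luminal and 2 basal arrays; points are arrays and the dashed line is the background level of 5.77. Embryonic points lie mostly between the adult groups, and those of Lrp6 and Nkd2 coincide because the 3 embryonic values are identical.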

How the data were processed

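The deposited table holds 1 linear intensity per probe set and array, for 7 arrays of amplified RNA from sorted cells. Per the submitters' processing notes, the authors used RMA, which corrects background, normalizes between arrays and summarises probes, through affy. No source used here states its settings or how embryonic and adult arrays were put on 1 scale. Log2 was taken first, since the design had assumed log2 values.

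Of 45141 rows, 4 without values and 104 controls were left out. The platform annotation gave 1 symbol for 28895 of 45033 probe sets, several for 551 and none for 15587, and all 55 genes described matched RefSeq by gene number under the same symbol. The probe set with the highest mean stood for each of 17096 genes. Limma 3.58.1 in R 4.3.3 (lmFit, eBayes) fitted the 4 adult arrays, with 2 residual and 3.73 prior degrees of freedom. All 7 arrays entered the embryonic contrasts, with 4 residual and 2.29 prior degrees of freedom, while the embryonic arrays were kept out of the adult comparison because their values tie. The fit was tested on simulated data. RefSeq promoter windows were matched by symbol.

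The genes, gene lists and tests were chosen with earlier results of these data known. All genes that passed, or lay above background, are given with values; of each further list the text names up to 4 passing genes in either direction, lowest p first, and the first 2 that missed. The background level depends on its gene list, of which Fgb passed as higher in luminal cells. Alternatives covered probe set choice, dim genes, quantile normalization, the variance prior, the fold minimum, a replicate block, the arrays in the fit and each array left out. Plots used matplotlib 3.10.9 and Python 3.11.15.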

Additional observations from a re-analysis of the deposited data

How the results depend on the processing

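Wnt4 and Wnt7b were the 2 genes higher in luminal cells, and every other gene of the 55 that passed was lower there, in each alternative run. The count of the 55 that passed was 15, and 11 to 19 with other probe set, dim gene, normalization, prior, fold or array choices. It was 6 to 18 with 1 adult array left out, and over all genes 519 to 1443. Without a fold minimum 2879 of all genes passed, against 1165. With all 7 arrays in the fit Apcdd1, Fzd1, Fzd7 and Wnt10a no longer passed. With the mean of all probe sets Nkd2 no longer passed. A trend and robust prior added Fzd8. Wnt10a was not tested when dim genes were left out. The cause of these shifts was not tested.

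With 1 adult array left out, the sign turned for 11 of the 20 genes below background in both groups and for 4 of the 35 above it, none of which had passed. Axin1 was at -0.039 with quantile normalization and at -0.048 to 0.067 with 1 array left out, below 0 without luminal replicate 1 or basal replicate 1. With 1 array left out, Lrp5 ranged from -0.17 to 0.020 and Tcf7l2 from -0.34 to 0.28, both above 0 without luminal replicate 1 or basal replicate 2. Wnt2b ranged from -0.074 to 0.25, below 0 without luminal replicate 2 or basal replicate 2.

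For embryonic minus basal, 1 gene passed, Prickle2, with the mean of all probe sets and among genes above background, and 0 to 1 with 1 array left out. Those were Wif1 without embryonic replicate 1 and Prickle2 without embryonic replicate 3. For embryonic minus luminal, 1 passed, Wnt4, with the mean of all probe sets, and 0 to 2 with 1 array left out, Wnt4 and Wnt7b without embryonic replicate 3.

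Replicate numbers did not pair the arrays by any label. Deviations of same-numbered luminal and basal arrays had a correlation of 0.08 across genes. With the replicate block 15 of the 55 genes passed for luminal minus basal, the same 15, and 2 for embryonic minus luminal, Wnt4 and Wnt7b. Signal below background in both adult groups limits 20 of the 55 genes, for which small differences cannot be read.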
